A study of Rattus norvegicus with 2 samples.

Results

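Collagens are the main structural proteins of the extracellular matrix, and each molecule is built of chains that wind into a helix, encoded by a family of Col genes. Fibrillar collagens form the fibres of connective tissue, which in the brain are found mainly in the meninges and around larger vessels. Basement membrane collagens form the sheet beneath endothelium, and the remaining chains coat fibrils, form beaded filaments or nets, or sit in the cell membrane, some of them in neurons. The genes described here were chosen by name, as all genes whose symbol starts with Col, a number, the letter a and a number. This pattern matched 45 of the 22777 genes of the mRNA table. Col4a3bp, which encodes a ceramide transfer protein and no collagen chain, was left out, so that 44 collagen chain genes with 58 transcripts remained. They were 11 fibrillar, 6 basement membrane and 27 other chains, and all 44 had FPKM above 0.

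Hypothalamic RNA of female Sprague Dawley rats was sequenced at 2 stages, prepuberty (postnatal day 25) and puberty (first estrus, postnatal day 35), with no treatment. The methods give 3 rats per stage, but there is a single column for either stage, so each stage is 1 library, no value has a replicate, and no difference between the stages was tested. Values are FPKM, the number of fragments relative to transcript length and library depth, summed over the transcripts of a gene. Ratios are log2 of pubertal FPKM + 1 over prepubertal FPKM + 1, so that negative values stand for a lower level at puberty.

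The low FPKM values stepped in whole fragments, which gave the depth of each library. At 20650000 fragments before puberty and 16150000 at puberty, 96.0% and 96.3% of the 1246 and 1378 low values came out within 0.05 of a whole number. For a transcript of 5000 nt, 1 fragment was worth 0.0102 FPKM before puberty and 0.0130 FPKM at puberty. Each fold below has a 95% interval from the fragment numbers, which covers counting error only and carries no spread between rats. Markers of hypothalamic neurons were present in both libraries, with Pmch, the melanin-concentrating hormone precursor, at 1675 and 2723 FPKM, and all 9 such markers were above 2 FPKM. Fewer cells of a type and less RNA per cell cannot be told apart in such tissue RNA.

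Sequence before the annotated start was read for some of the genes on which the results turn. It came from a set of RefSeq promoters (GRCr8) in which 35 of the 44 genes were found. Col1a1 and Col3a1 were not among these 35. The build differs from that of the files, so the coordinates belong to GRCr8 alone. Capitals mark the letters of a CCAAT box, of a TATA box (searched as TATAAA) or of a GC box, which was searched for as GGGCGG, all on both strands. The first line is the whole stretch between the starts of Col4a1 and Col4a2, the main basement membrane chains, at chr16:84885521-84885596 on the plus strand. The others are the 250 bases before the start of Col1a2 (chr4:33518307-33518556, plus strand), Col6a1 (chr20:11905440-11905689, plus strand) and Col11a2 (chr20:4817649-4817898, minus strand), of which Col1a2 and Col6a1 were lower and Col11a2 higher at puberty.
Col4a1-Col4a2: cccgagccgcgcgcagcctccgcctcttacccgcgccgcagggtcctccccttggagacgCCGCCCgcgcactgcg
Col1a2: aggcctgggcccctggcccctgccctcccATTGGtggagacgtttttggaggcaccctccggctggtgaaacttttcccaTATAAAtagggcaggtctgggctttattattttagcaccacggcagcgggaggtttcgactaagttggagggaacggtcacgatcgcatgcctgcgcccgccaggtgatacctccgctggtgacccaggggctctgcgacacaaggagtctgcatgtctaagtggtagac
Col6a1: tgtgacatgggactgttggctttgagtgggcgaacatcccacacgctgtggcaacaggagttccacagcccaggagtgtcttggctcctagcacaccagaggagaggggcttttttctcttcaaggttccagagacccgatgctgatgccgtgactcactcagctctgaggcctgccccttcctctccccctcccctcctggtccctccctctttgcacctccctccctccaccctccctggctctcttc
Col11a2: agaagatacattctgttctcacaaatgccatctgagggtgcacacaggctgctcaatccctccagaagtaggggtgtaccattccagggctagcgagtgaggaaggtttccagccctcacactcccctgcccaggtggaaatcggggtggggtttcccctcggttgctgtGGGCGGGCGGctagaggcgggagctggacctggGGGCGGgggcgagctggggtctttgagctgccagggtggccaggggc
In these windows, Col1a2 held a CCAAT box on the opposite strand 221 bases and a TATA box 170 bases before the start, and Col11a2 held 3 GC boxes 80, 76 and 47 bases before the start, of which the first 2 overlap. Col6a1 held none of the 3 motifs. Of all 33469 RefSeq promoters, 34.0% held a CCAAT box, 12.9% a TATA box and 30.5% a GC box in the 250 bases before the start. Among the 35 collagen genes with a promoter, 11, 4 and 19 did. A match of letters is a description and not a site of binding.

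The summed level of the 44 collagen chain genes went from 256 FPKM before puberty to 197 FPKM at puberty, 0.769 times as much, or 1.02 times after scaling to equal Actb (the beta-actin gene). Of the 44 genes, 35 were lower and 9 higher at puberty, where 51.0% of the 18052 genes with FPKM above 0 were lower, and under scaling to equal Actb the split became 22 and 22, where 16.6% of all genes were lower. The median log2 ratio was -0.17, against -0.0061 over all genes. At least 1.5-fold lower in FPKM + 1 were 6 collagen chain genes (2.34% of all genes), Col1a1, Col6a1, Col1a2, Col3a1, Col6a2 and Col6a3, and at least 1.5-fold higher were 0 (1.81% of all genes). These 6 are the chains of collagens I and III and the classical chains of collagen VI. With equal Actb, 2 were 1.5-fold lower (0.947% of all genes), Col1a1 and Col6a1, and 2 higher (13.4%), Col11a2 and Col16a1. The counting interval of the fold lay below 1 for 19 of the 44 genes (18.5% of all genes) and above 1 for 3 (15.8% of all genes), Col11a2, Col16a1 and Col22a1. With equal Actb, the interval lay below 1 for 7 genes (1.79% of all genes), the 6 above and Col4a1, and above 1 for 10 (55.7% of all genes), so that this split turned round. Intervals narrow with the number of fragments and so with transcript length, and in the longest length class, described further on, the interval lay below 1 for 14 of 27 collagen chain genes and for 46.3% of all 1806 genes.

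**Figure D1:**
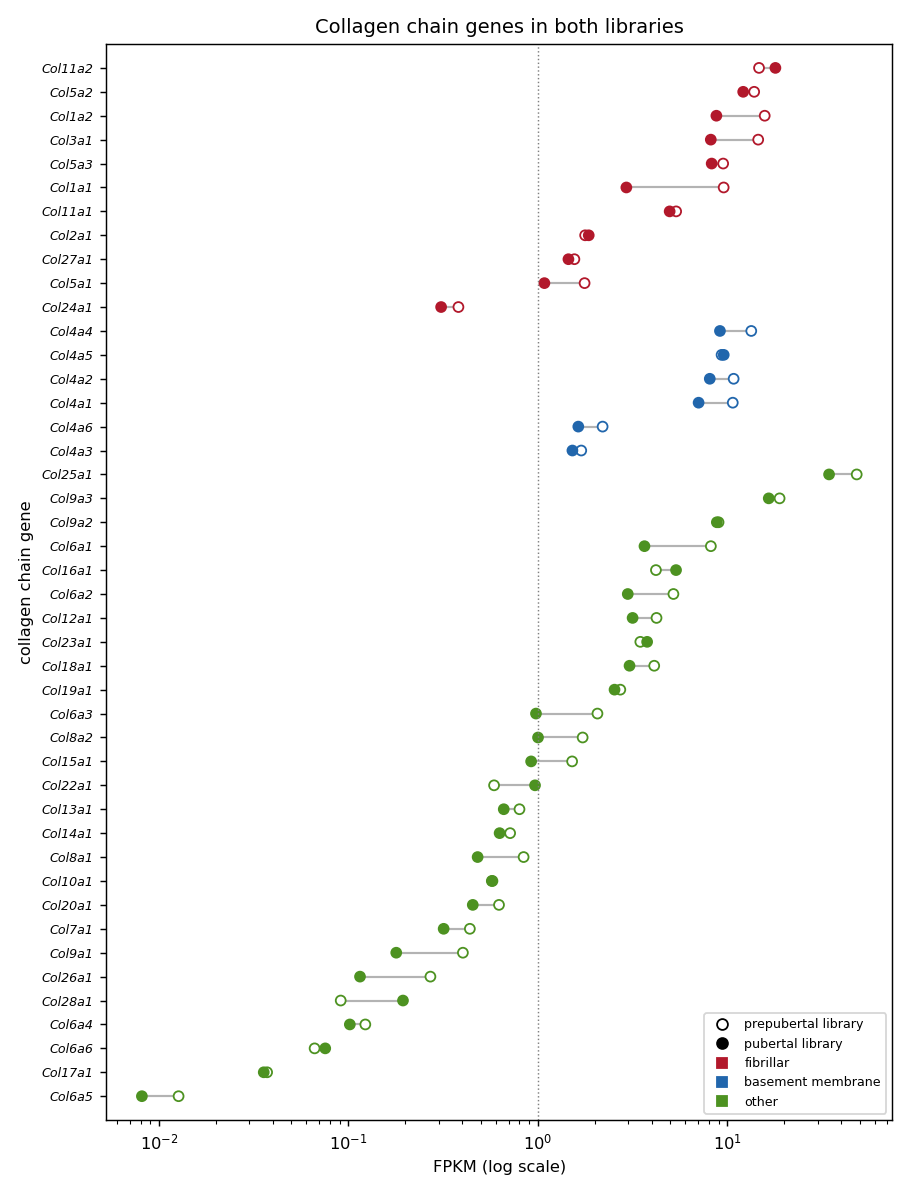
FPKM of each of the 44 collagen chain genes on a log scale, with open circles for the prepubertal and filled circles for the pubertal library, 1 library each, and colours for the class. The dotted line marks 1 FPKM. Col1a1 has the longest line among the fibrillar chains, from 9.57 to 2.93 FPKM, and Col25a1 the highest level, 48.2 and 34.5 FPKM.

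By class, fibrillar chains held 34.7% of the collagen FPKM before puberty and 34.5% at puberty, basement membrane chains 18.8% and 18.8%, and other chains 46.5% and 46.7%. The classes therefore kept their shares, while genes within them moved apart. The order of the 44 levels was close in both libraries (Spearman's rho across genes 0.968, as a description, since the genes share both libraries). Col1a1 went from position 10 to position 20 in that order, and Col4a5 from position 12 to position 5.

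Fibrillar collagens, whose chains assemble into the fibres that give tissue its tensile strength, had a median log2 ratio of -0.18. Of these 11 genes, 9 were lower and 2 higher, where 51.0% of all genes were lower and 74.1% of the longest length class. That class holds 10 of the 11. Under scaling to equal Actb the fibrillar median was 0.19, where the median of all genes was 0.30. The chains of collagens I and III summed to 39.9 FPKM before puberty and 19.9 FPKM at puberty, 0.498 times as much (0.6597 with equal Actb). The other 8 fibrillar genes, among which Col5a1 had a fold close to those of Col1a2 and Col3a1 at a much lower level, summed to 48.95 and 48.0 FPKM, 0.981 times as much (1.299 with equal Actb and 1.02 with equal medians).

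Col1a1 (ENSRNOG00000003897), the alpha1 chain of collagen I, was at 9.57 and then 2.93 FPKM, with a log2 ratio of -1.43. These levels rest on 1101 and 264 fragments, and the fold was 0.307 (0.267 to 0.351). It was the lowest ratio of all 44 genes. Col1a2 (ENSRNOG00000011292), the partner chain of the same molecule, was at 15.8 and then 8.76 FPKM, with a log2 ratio of -0.78 and a fold of 0.556 (0.504 to 0.613). Col3a1 (ENSRNOG00000003357), which forms a molecule of its own in fibres shared with collagen I, went from 14.6 to 8.19 FPKM, with a log2 ratio of -0.76 and a fold of 0.563 (0.510 to 0.620). The intervals of Col1a2 and Col3a1 overlapped widely, and that of Col1a1 lay below both. All 3 genes kept a negative ratio under each scaling tried. With equal Actb, where the median of all genes moved to 0.30, they were at -1.11, -0.41 and -0.39.

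Collagen V chains start and limit the growth of collagen I fibrils. Col5a1 was at 1.77 and then 1.08 FPKM, with a log2 ratio of -0.41 and a fold of 0.614 (0.476 to 0.793). With equal Actb its log2 ratio was -0.18 and its interval included 1. Col5a2 went from 13.9 to 12.1 FPKM (log2 ratio -0.18) and Col5a3 from 9.51 to 8.27 FPKM (-0.18). With equal Actb they were at 0.20 and 0.19, where the median of all genes was 0.30. The folds of Col5a2 and Col5a3, 0.876 and 0.870, differed by less than their counting intervals.

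Among the chains best known from cartilage, Col11a2 was the highest fibrillar gene at puberty. It was at 14.7 and then 17.96 FPKM, with a log2 ratio of 0.27 and a fold of 1.22 (1.14 to 1.31). Its partner Col11a1 went from 5.37 to 4.96 FPKM, a fold of 0.929 whose interval, 0.829 to 1.04, includes 1. Col2a1 was at 1.78 and 1.86 FPKM and Col27a1 at 1.56 and 1.45 FPKM, both with intervals that include 1. Col24a1, the remaining fibrillar gene, was at 0.381 and 0.309 FPKM, on 30 and 19 fragments.

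**Figure D2:**
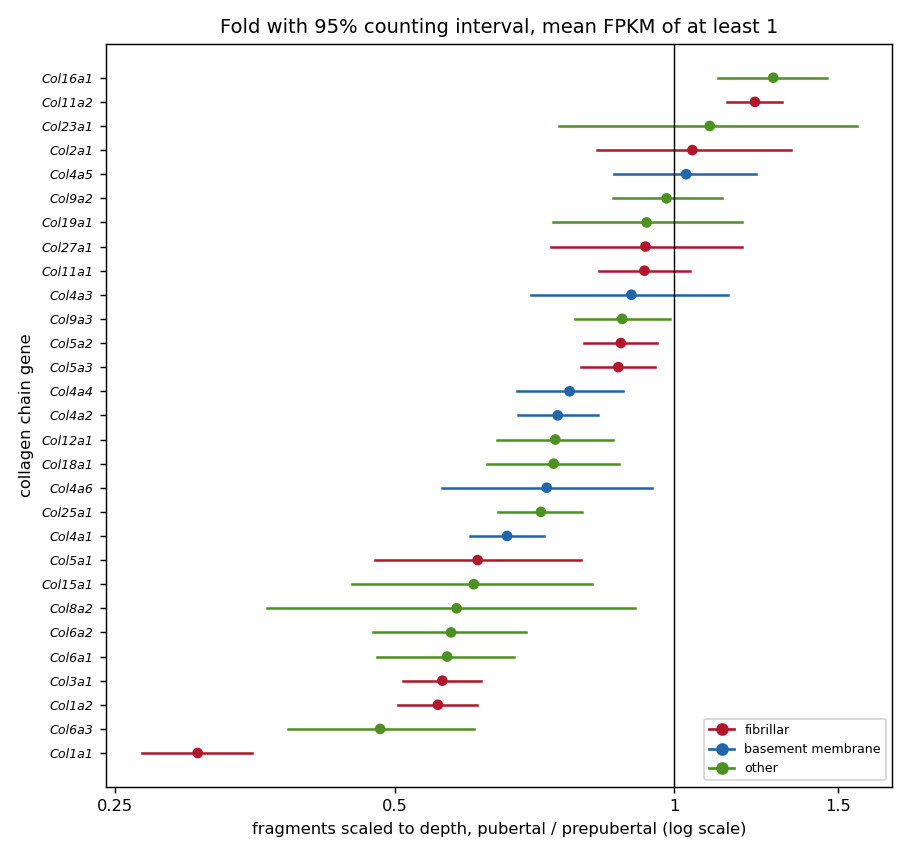
Fold of fragments scaled to depth, pubertal over prepubertal on a log scale, for the 29 collagen chain genes with a mean of at least 1 FPKM, with bars for the 95% counting interval, which holds no spread between rats. Col1a1 lies lowest at 0.307, and the bars of Col11a2 and Col16a1 lie above 1.

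Basement membrane collagens are all chains of collagen IV, which lines vessels and the surface of the brain. Of the 6 genes, 5 were lower and 1 higher, where 51.0% of all genes were lower and 74.1% of the longest length class. Their median log2 ratio was -0.33, or -0.013 under scaling to equal Actb, where the median of all genes was 0.30. None of the 6 was 1.5-fold lower in FPKM + 1, and 4 had a counting interval below 1 (46.3% of all genes in the longest class, which holds 5 of these 6). With equal Actb only Col4a1 of the 6 kept such an interval. Col4a1 (ENSRNOG00000016281) was at 10.7 and then 7.06 FPKM, with a log2 ratio of -0.54 and a fold of 0.661 (0.603 to 0.723). Col4a2 (ENSRNOG00000023972) was at 10.8 and then 8.09 FPKM, with a log2 ratio of -0.38 and a fold of 0.749 (0.678 to 0.828). These are the chains of the common collagen IV molecule, and before puberty they had nearly the same level. Their starts lie 76 bases apart on opposite strands in GRCr8, the stretch printed above, which holds a GC box on the minus strand 16 bases before the start of Col4a1. Both genes stayed lower with equal Actb, at -0.18 and -0.012.

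The minor collagen IV chains also lie in such pairs, Col4a3 with Col4a4, whose starts are 412 bases apart, and Col4a5 with Col4a6, at 1414 bases. Col4a5 was at 9.33 and 9.58 FPKM and Col4a6 at 2.20 and 1.64 FPKM, so the members of this pair differed in level and in ratio, 0.03 against -0.28. The Col4a5 model in the files is 1758 nt long and the longest Col4a6 model 4419 nt. Col4a3 went from 1.69 to 1.52 FPKM, a fold of 0.899 (0.701 to 1.14). Col4a4 went from 13.4 to 9.15 FPKM, but 6.74 and 3.54 FPKM of this came from a model of 398 nt on about 20 and 8 fragments. Without models under 1000 nt, its log2 ratio was -0.21 instead of -0.50.

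The other 27 chains had a median log2 ratio of -0.13, with 21 genes lower and 6 higher, where 51.0% of all genes were lower. The longest length class, with 74.1% lower, holds 12 of the 27. With equal Actb the median of the 27 was -0.0028, where that of all genes was 0.30. Only 13 of them reached a mean of 1 FPKM, and the median of these 13 was -0.34. The added 1 draws the ratios of low genes towards 0.

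Collagen VI, the beaded filament collagen that links cells to the fibrous matrix, was lower in its classical chains. Its 6 genes summed to 15.7 FPKM before puberty and 7.80 FPKM at puberty, 0.498 times as much (0.6598 with equal Actb). These sums include the short Col6a1 model described next. Col6a1 (ENSRNOG00000001249) was at 8.19 and then 3.66 FPKM, with a log2 ratio of -0.98. Part of this came from a model of 798 nt, at 2.61 and 0.306 FPKM on about 29 and 3 fragments, and the 3885 nt model alone was at 5.58 and then 3.35 FPKM, with a log2 ratio of -0.60. Col6a2 (ENSRNOG00000001254) was at 5.20 and then 2.98 FPKM, with a log2 ratio of -0.64 and a fold of 0.575 (0.473 to 0.692). Col6a3 (ENSRNOG00000019648) was at 2.06 and then 0.978 FPKM, with a log2 ratio of -0.63 and a fold of 0.482 (0.383 to 0.609). The counting intervals of these chains overlapped with each other and with those of Col1a2 and Col3a1. With equal Actb they were still lower, at -0.65, -0.32 and -0.42. Col6a4, Col6a5 and Col6a6 were at up to 0.123 FPKM, on at most 17 fragments.

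Col25a1, a transmembrane collagen of neurons whose shed part binds amyloid, was the highest collagen gene in both libraries. Summed over its 3 transcripts, it was at 48.2 and then 34.5 FPKM, with a log2 ratio of -0.47 and a fold of 0.718 (0.646 to 0.796). With equal Actb its log2 ratio was -0.08 and its interval included 1. Its models are 1224 to 1287 nt long and each was lower at puberty, with log2 ratios from -0.22 to -0.49. In that length class (1066 to 1353 nt) the median of all genes was 0.04. Col23a1, another transmembrane chain, was at 3.48 and 3.78 FPKM, with a fold of 1.09 (0.7505 to 1.57), and Col13a1 and Col17a1 were below 1 FPKM.

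Collagens that attach to fibrils without forming them (the FACIT group) summed to 41.4 and 38.7 FPKM, 0.934 times as much (1.24 with equal Actb). Col9a3 went from 18.9 to 16.6 FPKM (log2 ratio -0.18, or 0.20 with equal Actb) and Col9a2 was at 8.997 and 8.81 FPKM, while Col9a1, the third chain of collagen IX, was at 0.402 and 0.179 FPKM. Col16a1 was at 4.20 and then 5.37 FPKM, with a log2 ratio of 0.29 and a fold of 1.28 (1.11 to 1.46). Col12a1, which is known to bind collagen I fibrils, was at 4.23 and then 3.16 FPKM, with a log2 ratio of -0.33 and a fold of 0.744 (0.645 to 0.859), while with equal Actb its ratio was -0.012 and its interval included 1. Col19a1, a chain made by some neurons, was at 2.73 and 2.54 FPKM, with an interval that includes 1. Col22a1, at 0.587 and 0.966 FPKM, had a fold of 1.65 (1.14 to 2.37) on 56 and 72 fragments.

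Col18a1 and Col15a1 are collagens of basement membrane zones that carry sugar chains. Col18a1 went from 4.12 to 3.05 FPKM, a fold of 0.741 (0.628 to 0.872), while with equal Actb its log2 ratio was -0.02 and its interval included 1. Col15a1 went from 1.52 to 0.922 FPKM, a fold of 0.608 (0.450 to 0.816). Col8a2, a chain of the net-forming collagen VIII, went from 1.72 to 1.002 FPKM, a fold of 0.583 (0.364 to 0.908) on 66 and 30 fragments. With equal Actb the intervals of Col15a1 and Col8a2 also included 1. Of the 15 genes with a mean under 1 FPKM in all classes, 11 were lower and 4 higher, and Col22a1 was the single gene of them whose interval did not include 1.

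Chains of one molecule can be compared within a library, where the scaling of the library cancels. FPKM of Col1a1 was 0.607 times that of Col1a2 before puberty (counting interval 0.560 to 0.658) and 0.335 times at puberty (0.289 to 0.388). These intervals did not overlap. Collagen I has more alpha1 than alpha2 chains in its usual molecule, and Col1a1 was the lower of the pair in both libraries. Col4a1 was 0.989 times Col4a2 (0.913 to 1.07) and then 0.873 times (0.783 to 0.972), with overlapping intervals. For collagen XI, Col11a1 was 0.365 times Col11a2 (0.334 to 0.398) and then 0.276 times (0.2503 to 0.305), without overlap. For collagen VI, Col6a3 was 0.397 times Col6a2 (0.338 to 0.465) and then 0.328 times (0.255 to 0.424), and for collagen IX, Col9a2 was 0.476 times Col9a3 (0.423 to 0.534) and then 0.532 times (0.464 to 0.609). Both of these pairs of intervals overlapped.

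Collagen transcripts are long, and the ratio between the stages moved with transcript length. Over all genes, the median log2 ratio went from 0.07 in the class of 737 to 1065 nt to -0.10 in the class of 4346 nt and above, where 74.1% of the genes were lower. This longest class held 27 of the 44 collagen chain genes, 10 of 11 fibrillar, 5 of 6 basement membrane and 12 of 27 other. Set against the median of its own length class, a collagen gene was below it in 28 of 44 cases, where 50.0% of all genes are, and above it in 16. The median after this centring was -0.08 for fibrillar, -0.23 for basement membrane and -0.08 for other chains. The basement membrane value includes the 398 nt model of Col4a4. Without models under 1000 nt, the median of this class before centring was -0.245 instead of -0.33. Centred ratios of at least 1.5-fold lower remained for 4 of the 6 genes (2.43% of all genes), Col1a1, Col1a2, Col3a1 and Col6a1. Those of Col6a2 (-0.58) and Col6a3 (-0.53) came just short. The Col6a1 value includes its 798 nt model, and its 3885 nt model alone was at -0.60 before centring.

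**Figure D3:**
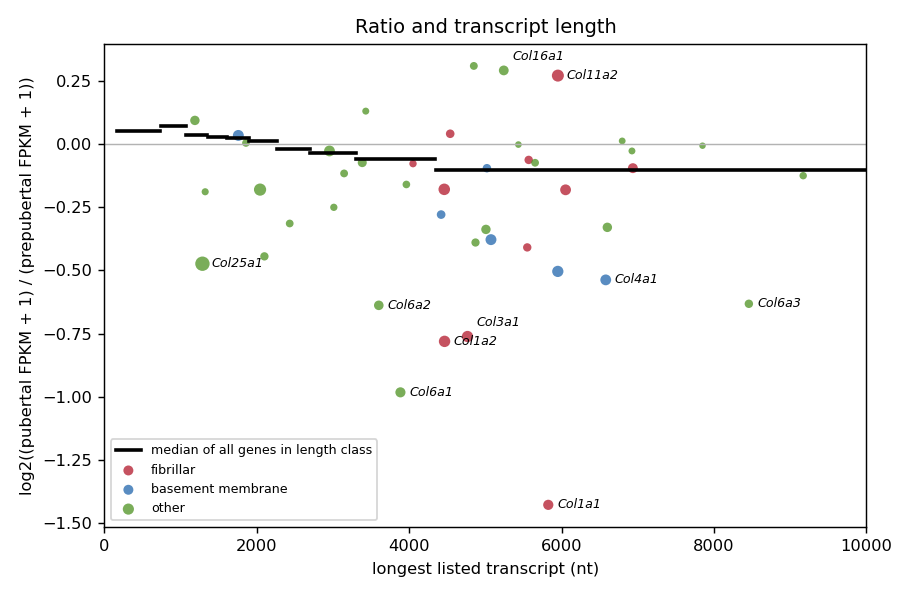
Log2 ratio against the length of the longest listed transcript for the 44 collagen chain genes, coloured by class, with larger points for higher mean FPKM. Black bars give the median of all genes in 10 length classes (the last class runs on past the axis), from 0.07 in the second class to -0.10 in the last, and Col1a1, at -1.43 and 5825 nt, lies far below them.

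The genes that make, cross-link, bind and break down collagen were counted from lists. These lists, and the marker lists below, were chosen with earlier results of these data known. Enzymes that hydroxylate or glycosylate collagen in the endoplasmic reticulum did not share the direction. Of them, 8 were lower and 6 higher (1 and 13 with equal Actb), with a median log2 ratio of -0.08. Among all genes 51.0% were lower, near the share of these enzymes, and 16.6% with equal Actb. P4ha1, a catalytic subunit of prolyl hydroxylase, went from 33.3 to 46.3 FPKM (0.46). P4hb, its partner subunit, was at 103.7 and 110.9 FPKM (0.10). These enzymes also modify other proteins. The chaperone and export genes were lower in 4 of 4 cases, among them Sparc, a secreted collagen-binding protein, from 1174 to 923 FPKM (-0.35), and Serpinh1, the collagen chaperone, from 47.2 to 37.9 FPKM (-0.31). With equal Actb, 0 of these 4 were lower and their median was 0.08, where that of all genes was 0.30.

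All 5 cross-linking genes were lower, with a median of -0.46, and 4 of 5 with equal Actb (-0.20). Beside this and the counts that follow, 51.0% of all genes were lower, or 16.6% with equal Actb. Lox, the lysyl oxidase that starts the cross-links of fibres, was at 3.22 and then 0.929 FPKM, with a log2 ratio of -1.13. Of the 7 genes for propeptide cleavage, 5 were lower and 2 higher (3 and 4 with equal Actb), and Bmp1, which trims the end of fibrillar procollagens, went from 7.85 to 5.56 FPKM (-0.43). Among 10 receptors, 8 were lower (4 with equal Actb), with Ddr2, a receptor kinase for fibrillar collagen, at 3.10 and 1.497 FPKM (-0.71) and Ddr1 at 30.8 and 31.1 FPKM (0.01). Ddr2 is not among the 4 highest receptors and was picked after its value was seen, as the 1 receptor that was 1.5-fold lower. Of 6 degrading enzymes, 4 were lower and 2 higher, and Mmp14, a membrane-bound collagenase, went from 6.87 to 2.98 FPKM (-0.98). Of 4 inhibitors, 3 were lower (1 with equal Actb), and Timp1 was 1.5-fold lower, from 7.20 to 4.20 FPKM (-0.66), and Timp4 was higher, from 38.7 to 44.9 FPKM (0.21). Lox, Mmp14, Ddr2 and Timp1 stayed lower with equal Actb, at -0.92, -0.67, -0.46 and -0.32.

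**Figure D4:**
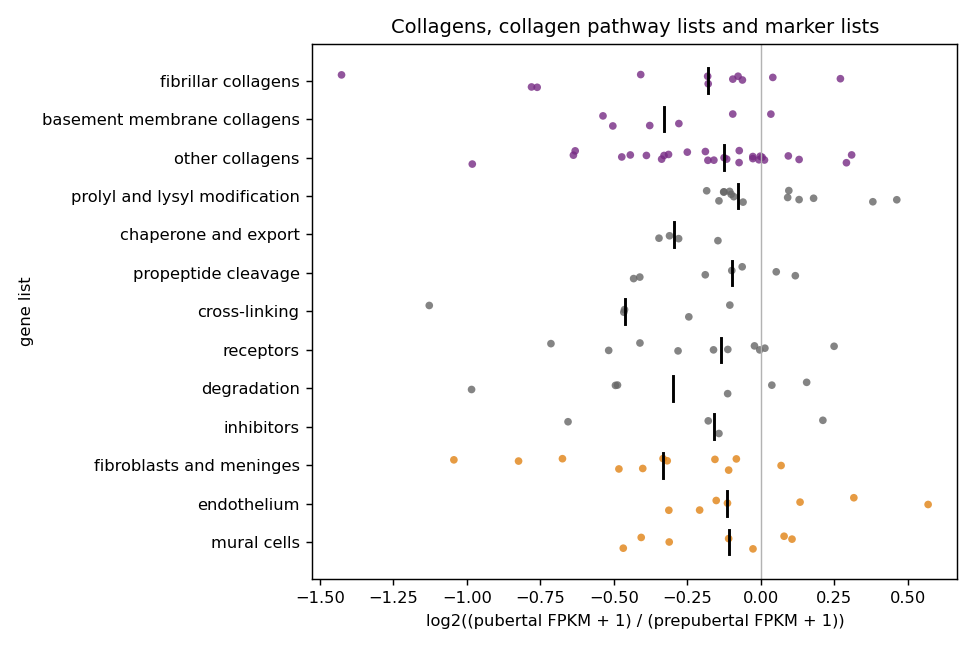
Log2 ratio of each gene (points, with random vertical offset) and the median (black bars) for the collagen classes, the collagen pathway lists and 3 marker lists, 1 library per stage and deposited FPKM. Cross-linking genes have a median of -0.46, fibroblast and meninges markers -0.33, endothelial markers -0.11 and mural cell markers -0.11. With equal Actb these medians were -0.20, 0.02, 0.29 and 0.28.

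Markers of the cells that could supply collagen moved with these values in part. Of 11 markers of fibroblasts and meninges, 10 were lower at puberty, where 51.0% of all genes were lower. Their median was -0.33, and their summed level went from 100.1 to 78.5 FPKM. With equal Actb, 5 were lower and 6 higher, with a median of 0.02, where 16.6% of all genes were lower and the median of all genes was 0.30. The defining proteoglycans Dcn and Lum were at 11.8 and 10.9 FPKM and at 6.19 and 4.76 FPKM. At least 1.5-fold lower (2.34% of all genes) were 3 markers, Slc6a13 from 8.72 to 3.71 FPKM, Slc22a6 from 2.16 to 0.783 FPKM and Ogn from 9.28 to 5.44 FPKM, and all 3 stayed lower with equal Actb. Lum, Slc6a13 and Slc22a6 are outside the 4 highest markers of this list and were named after their values were seen. Endothelial markers were lower in 4 of 7 cases, near the share of all genes (1 with equal Actb), and summed to 147.6 and 156.8 FPKM. Mural cell markers were lower in 5 of 7 cases (2 with equal Actb) and summed to 129.2 and 129.97 FPKM. Red blood cell genes were 1.5-fold higher (1.81% of all genes) in 4 of 4 cases, with Hbb from 2130 to 5898 FPKM. Thalamic markers were lower in 4 of 4 cases (2 with equal Actb), with a median of -0.40, choroid plexus markers in 2 of 6 with a median of 0.13 but a summed level of 36.8 and 32.5 FPKM, most of it Ttr at 29.0 and 23.0 FPKM, and pituitary markers in 1 of 5 with a median of 0.27 (0 of either list with equal Actb). Markers of hypothalamic neurons went the other way, with 8 of 9 higher (9 with equal Actb), a median of 0.33 and a summed level of 2661 and 4060 FPKM. The part of these cells in the collagen values was not tested.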

How the data were processed

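Ribosomal RNA was depleted from hypothalamic RNA and strand-specific libraries were sequenced as paired ends. Alignment was by TopHat and assembly by Scripture and Cufflinks, and the authors deposited the FPKM that Cuffdiff gave per transcript (version 2.1.1 per the submitters' processing notes, which name Rnor_5.0, while the methods link an annotation of a later assembly). How the 3 rats of a stage were combined is not stated in the sources used here. The authors' comparison table also holds log2 ratios, p-values and q-values, which were not used. From it came gene names and transcript lengths. Its FPKM differed from the mRNA table for 13 of 26324 transcripts and for 0 collagen transcripts.

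FPKM were summed per gene, 1 was added and log2 ratios were taken. The depth and an offset subtracted from transcript lengths (255 and 250 nt) were found by search, as the values that gave the most whole fragment numbers up to 8 among genes with 1 transcript of at least 1000 nt. The values came out within 0.05 of whole for 96.0% and 96.3%. Fragment numbers of short models and of genes with several models are approximate. Fold intervals are exact conditional binomial (Clopper-Pearson) intervals at 95%. On data simulated with counting error only, for 19202 genes with 1 model each, 2 of 2 depths were recovered within 100000 fragments. The simulated intervals used the true counts and depths, and 95.5% held the true fold (12645 genes over 20 fragments). This checks the interval formula alone, and not the fragment numbers of genes with several models. Length classes are 10 groups of all genes by longest transcript. Collagen members, classes and lists were chosen with earlier results of these data known. Every collagen chain gene with a mean of at least 1 FPKM over both libraries was to be named with its values, and of the other lists up to 4 of the highest genes. Protein sequences and 9 promoters were not analysed here. Scripts ran in Python 3.11.15 with matplotlib 3.10.9, scipy 1.17.1, pandas 2.3.3 and numpy 2.4.6.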

Additional observations from a re-analysis of the deposited data

How the results depend on the processing

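Each stage has 1 library, so no replicate could be left out, and the settings show how far the values rest on the processing, not on the rats. With Actb made equal, by multiplying pubertal FPKM by 1.32, the medians became 0.0056 for all collagen chain genes, 0.19 for fibrillar, -0.013 for basement membrane and -0.0028 for other chains, with 2 genes 1.5-fold lower (0.947% of all genes) and 2 higher (13.4%). The lower 2 were Col1a1 and Col6a1, the latter with its 798 nt model included. Under this scaling the median of all genes was 0.30 and 16.6% of them were lower. Of the 29 named genes, 16 were lower and 4 higher under each scaling, and 9 changed sign with it. With a pseudocount of 0.1 instead of 1, 13 genes were 1.5-fold lower (8.68% of all genes) and 2 higher (7.31%), and the median of the other chains was -0.24. With a mean of at least 1 FPKM the medians were -0.33 for all and -0.34 for other chains. Centring within length classes gave medians of -0.077 for fibrillar and -0.23 for basement membrane chains. At a threshold of 2-fold, 1 gene was lower, Col1a1 (0.471% of all genes). The remaining settings kept the direction of the 4 medians. They were equal medians, equal sums of mRNA FPKM, the highest transcript, the FPKM of the comparison table and every name the pattern matches. Leaving out models under 1000 nt and dividing all fragments by the longest transcript were also among them, added after the data were seen. Between 5 and 8 genes were 1.5-fold lower (1.53% to 2.88% of all genes), not always the same ones. With equal sums Col4a1 joined, at -0.59. With fragments over the longest transcript Col6a3 fell short, at -0.56. No paired analysis was possible because each stage has 1 library.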

Other observations

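Some collagen genes differed between their transcript models. Of the Col11a1 models, the 6899 nt model was at 4.69 and 4.96 FPKM, a log2 ratio of 0.07, while the 6680 nt model was at 0.678 FPKM (about 90 fragments) before puberty and is listed at 0 at puberty. For Col20a1, the 3963 nt model was at 0.624 FPKM before puberty and close to 0 at puberty, and the 3795 nt model is listed at 0 before puberty and at 0.453 FPKM at puberty, so that the summed level went from 0.624 to 0.453 FPKM. For Col12a1, both models were lower at puberty, the 6600 nt model from 2.59 to 1.81 FPKM and the 5796 nt model from 1.65 to 1.35 FPKM. How the assignment of fragments to models that share exons bears on these values was not tested.

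Col4a3bp, which matched the name pattern without being a collagen, was at 34.95 and 32.97 FPKM, a log2 ratio of -0.08.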
